A study of Mus musculus with 16 samples.

Results

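The 9 genes described here encode cytokines that effector and regulatory CD4+ T cells secrete: Il4, Il9, Il10, Il17a, Il21, Ifng, Tnf, Lif and Csf2. They were picked by symbol, whatever their values, and each was 1 of the 53090 genes quantified in every library. RNA came from splenic CD4+ T cells of WT mice and of mice deficient in Aim2 (Aim2-/-), both on the C57BL/6 background. In each genotype, 4 libraries were made from naive cells that had never been cultured (Tn, CD44low CD62Lhigh cells isolated with magnetic beads). The other 4 libraries of each genotype were made after 48 h of culture in Treg conditions (Treg), that is, with stimulating antibodies to CD3 and CD28, human TGF-beta and mouse IL-2. All Treg libraries had received stimulation, TGF-beta and IL-2 together and no Tn library had, so the contributions of these agents and of culture itself cannot be told apart. Nothing in the labels says that the 4 libraries of a group came from separate mice, and the age and sex of the mice behind each library are not given in the sources used here. The p-values below therefore measure only the spread between these libraries, which may be technical.

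The genes stand for the main arms of helper T cell function. IFN-gamma (Ifng) is the signature cytokine of Th1 cells, IL-4 of Th2 cells, IL-9 of Th9 cells, IL-17A of Th17 cells and IL-21 of follicular helper cells. TNF and GM-CSF (Csf2) activate myeloid and stromal cells, IL-10 restrains inflammation, and LIF belongs to the IL-6 family and signals through LIFR and gp130. In naive cells most of these genes are kept silent. Stimulation of the T cell receptor activates the NFAT, AP-1 and NF-kB factors at their promoters and enhancers, TGF-beta and the other cytokines present then decide which of the genes is used, and AU-rich elements in the transcripts keep many of the messages short-lived.

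Depth and identity were checked first. The libraries held from 22516486 to 34533396 counts, so that 3 counts, taken as the floor of measurement, stood for 0.0868 to 0.127 CPM (counts divided by the TMM-scaled library size). Aim2 was between 32.3 and 43.3 CPM in the WT libraries and between 6.61 and 10.8 CPM in the Aim2-/- libraries, a log2 fold change of -2.24 in Tn and -2.12 in Treg. The mRNA was therefore lower but still counted in every Aim2-/- library. All 7 markers of CD4 T cells exceeded 3 counts in every library. Foxp3, the defining transcription factor of Treg cells, rose from between 50 and 118 counts in Tn to between 7515 and 19810 in Treg. Markers of several other cells were higher in Tn than in Treg. The summed level of 11 NK, NKT and gamma delta T cell markers ranged from 18.4 to 36.1 CPM in Tn and from 4.9 to 7.4 CPM in Treg. That of 9 myeloid markers ranged from 4.23 to 11.8 CPM in Tn and from 0.202 to 1.89 CPM in Treg. Of these myeloid markers S100a8 and S100a9 never exceeded 3 counts, and neither did 5 of 6 markers of mast cells and basophils. The 7 B cell markers summed to 423 to 576 CPM in Tn and 121 to 169 CPM in Treg. Ighm alone held 422 to 572 CPM of this in Tn, and Ms4a1 and Pax5 never exceeded 3 counts. The 12 memory and effector T cell markers went the other way, with sums of 211 to 285 CPM in Tn and 338 to 481 CPM in Treg. The 4 erythroid markers summed to 0.672 to 2.73 CPM in WT Tn and, without overlap, to 3.72 to 5.45 CPM in Aim2-/- Tn. Of these erythroid genes 3 were tested for genotype in Tn and 0 were called.

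The start regions of 5 cytokine genes are printed as a description. Of these genes Lif, Il9 and Tnf rose with culture, while the adjacent genes Il17a and Il17f ended at very different levels. The part of the start regions in these levels was not tested. Each run holds the 250 bases upstream of the RefSeq start on GRCm38.p6, read 5′ to 3′ on the strand of the gene, and capitals mark the NFAT core GGAAA or its reverse complement TTTCC. The windows are chr11:4257318-4257567 for Lif (plus strand), chr13:56482258-56482507 for Il9 (minus strand), chr17:35202008-35202257 for Tnf (minus strand), chr1:20730655-20730904 for Il17a (plus strand) and chr1:20784271-20784520 for Il17f (minus strand).
Lif: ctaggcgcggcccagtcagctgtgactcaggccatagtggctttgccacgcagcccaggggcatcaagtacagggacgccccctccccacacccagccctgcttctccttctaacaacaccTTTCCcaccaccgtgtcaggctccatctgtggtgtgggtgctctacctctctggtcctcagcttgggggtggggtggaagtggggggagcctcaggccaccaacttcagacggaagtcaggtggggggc
Il9: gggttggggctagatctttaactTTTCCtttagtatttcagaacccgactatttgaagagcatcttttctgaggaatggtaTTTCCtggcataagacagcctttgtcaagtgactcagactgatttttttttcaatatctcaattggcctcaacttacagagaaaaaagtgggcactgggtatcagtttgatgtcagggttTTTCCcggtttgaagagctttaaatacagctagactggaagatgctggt
Tnf: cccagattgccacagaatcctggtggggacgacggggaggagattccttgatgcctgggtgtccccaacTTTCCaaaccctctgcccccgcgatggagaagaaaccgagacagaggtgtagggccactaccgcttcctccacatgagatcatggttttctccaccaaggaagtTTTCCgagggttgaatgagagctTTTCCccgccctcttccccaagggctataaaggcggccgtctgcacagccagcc
Il17a: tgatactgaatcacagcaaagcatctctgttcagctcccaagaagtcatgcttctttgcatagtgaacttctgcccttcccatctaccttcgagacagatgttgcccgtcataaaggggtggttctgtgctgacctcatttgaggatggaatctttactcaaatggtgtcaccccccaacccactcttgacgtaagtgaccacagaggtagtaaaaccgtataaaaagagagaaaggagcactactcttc
Il17f: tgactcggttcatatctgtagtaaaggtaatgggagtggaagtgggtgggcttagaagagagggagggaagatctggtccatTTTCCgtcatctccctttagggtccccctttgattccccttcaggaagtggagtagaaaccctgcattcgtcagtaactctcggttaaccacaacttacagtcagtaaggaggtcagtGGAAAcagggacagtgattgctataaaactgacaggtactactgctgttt

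In the GENCODE M21 annotation of GRCm38 all 9 are protein-coding genes. On chromosome 11 lie Lif (4257557 to 4272514, plus strand), Il4 (53602982 to 53618669, minus strand) and Csf2 (54247271 to 54249667, minus strand). On chromosome 1 lie Il17a (20730905 to 20734496) and Il10 (131019845 to 131024974), both on the plus strand. Il9 is on chromosome 13 (56479277 to 56482246, minus strand), Il21 on chromosome 3 (37222759 to 37232636, minus strand), Ifng on chromosome 10 (118441046 to 118445892, plus strand) and Tnf on chromosome 17.

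Counted on both strands, the letters GGAAA occurred 3 times in the windows of Il9 and Tnf, 2 times in that of Il17f, 1 time in that of Lif and 0 times in that of Il17a. Among 32851 RefSeq windows of this length, 55.6% held at least 1 copy, 21.4% at least 2 and 6.39% at least 3. The windows of Il4 held 5 copies, of Il21 3, of Csf2 2 and of Ifng 1, and the windows of Csf2 and Il17f start 232 and 6347 bases away from the gene start that GENCODE gives. The AP-1 letters TGANTCA occurred 1 time each upstream of Il9, Lif and Il17a, against 6.75% of all windows. The letters TATAAA of a TATA box occurred between 29 and 31 bases upstream of the start in Tnf, Ifng, Il17a and Il17f. Anywhere in the window and on either strand, they occurred in 12.4% of all windows, a share that sets no position. The NF-kB motif matched none of the 9 windows searched (3.9% of all windows), and the GATA letters AGATAA matched that of Csf2 (9.99%). Il10 has no entry in this table. These matches describe letters and no bound factor.

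None of the 9 genes stayed under 3 counts in all 16 libraries, but several did so within a group. Il9 and Il17a had 0 counts in each of the 8 Tn libraries, which allows up to 3 counts per library (0.0945 to 0.127 CPM). Il21 stayed under 3 counts in WT Tn, in WT Treg, where all 4 libraries had 0, and in Aim2-/- Treg, where the highest library had 1. It exceeded 3 counts only in the Aim2-/- Tn libraries, in 3 of 4. Il4 was between 0 and 3 counts in the WT Treg libraries and never above 9 in any library. Ifng, Tnf and Lif exceeded 3 counts in all 16 libraries.

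To compare the genes with each other, counts were divided by exon length and scaled to the same total in every library (TPM, mean ± SD, n = 4). In WT Tn, Tnf led with 36.9 ± 16.8 TPM, followed by Ifng with 8.35 ± 2.19 TPM, and their ranges did not overlap. Lif followed with 0.721 ± 0.359 TPM, Csf2 and Il4 with 0.553 TPM each and Il10 with 0.220 TPM, all with overlapping ranges. The order in Aim2-/- Tn began with Tnf at 28.8 ± 5.72 and Ifng at 8.56 ± 4.52 TPM, and Il10 followed with 1.32 ± 0.951 TPM. In WT Treg the leaders were Il9 at 92.2 ± 18.0, Tnf at 88.5 ± 21.4 and Lif at 81.8 ± 35.3 TPM, 3 levels whose ranges overlapped, and the highest Ifng library reached into the range of Lif. In Aim2-/- Treg Lif stood at 92.9 ± 24.4, Tnf at 89.1 ± 10.9 and Il9 at 87.3 ± 57.0 TPM, again with overlapping ranges. Ifng followed in both Treg groups, at 16.7 ± 22.9 TPM in WT and 28.2 ± 23.1 TPM in Aim2-/-, and the remaining 5 genes had means from 0 to 3.91 TPM. Of 22463 genes with a count in WT Treg, 1798 were above Il9 and 13295 above Il10. In CPM Lif exceeded Tnf by a factor of 2.46 in WT Treg, and per length the factor was 0.926, because its exons span 4350 bases against 1639.

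**Figure D1:**
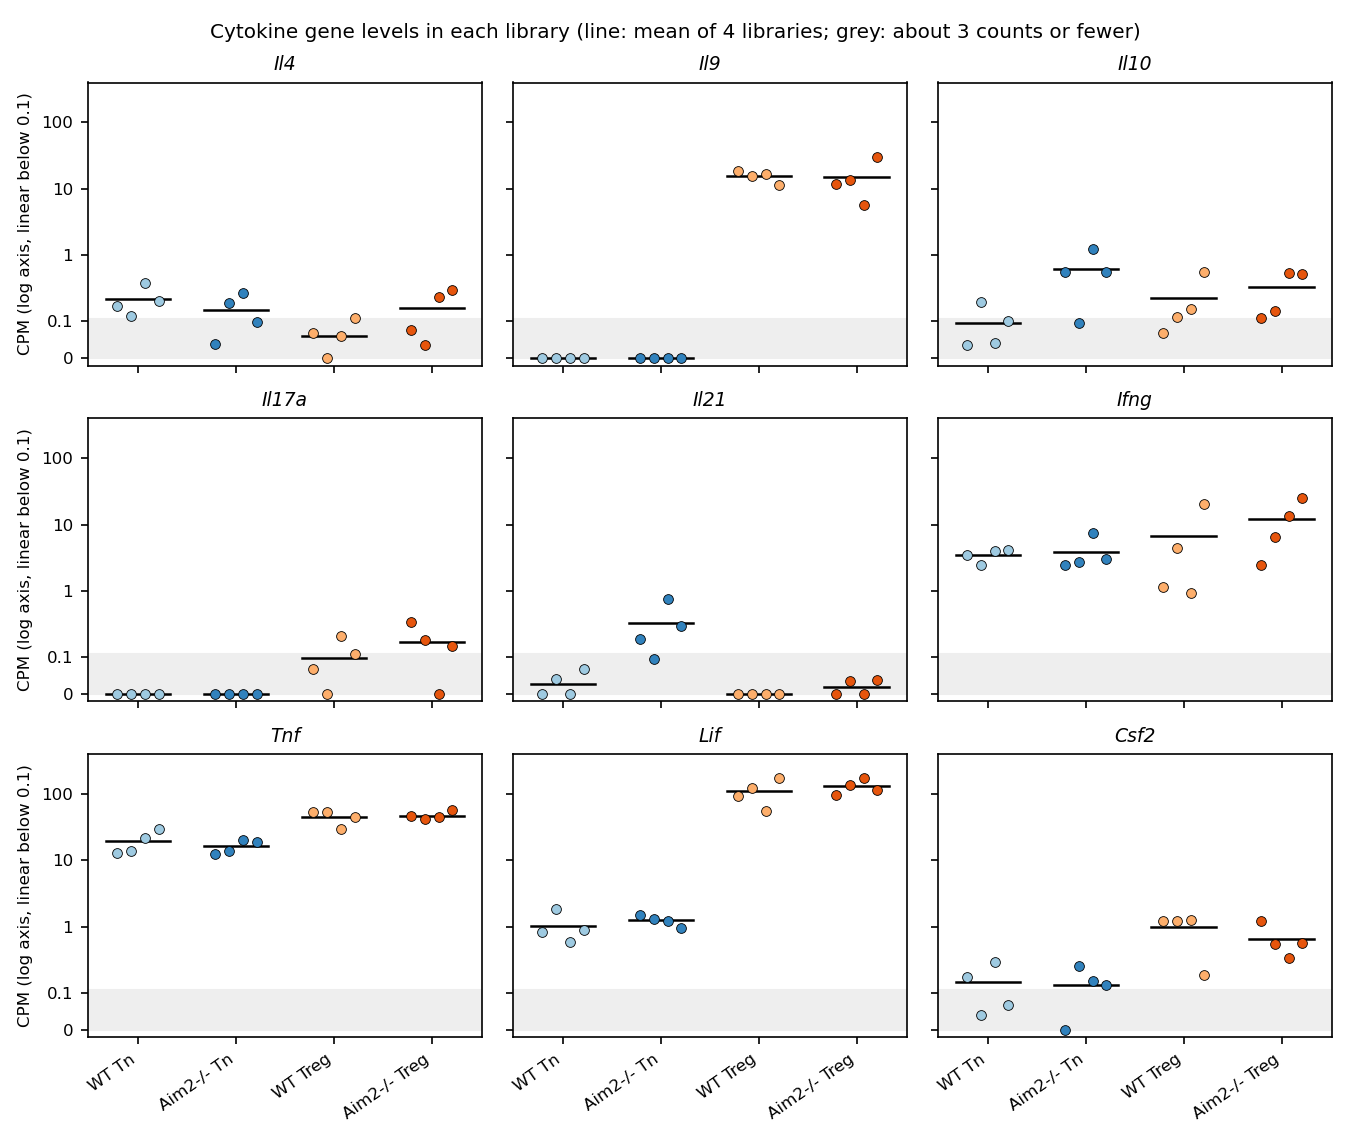
Level of each of the 9 cytokine genes in every library in CPM, on a log axis that is linear below 0.1, with the 4 libraries of each group as points and their mean as a line. Il9 and Il17a lie at 0 in all 8 Tn libraries, and Lif, Il9 and Tnf reach 5.73 CPM or more in every Treg library.

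The first question was what 48 h in Treg conditions did to these genes. Lif, Il9 and Tnf rose in both genotypes. Csf2 rose in Aim2-/- and, in a fit without the filter on low counts, in WT as well, and Ifng passed the test in Aim2-/-. Differences between states in RNA from whole samples can come from the share of cells that express a gene or from the RNA per cell, and these cannot be told apart. In WT cells 4 of the 9 genes passed the filter, which asked for 10 counts or more in 4 of the 8 libraries. By the quasi-likelihood test of edgeR, with p adjusted after Benjamini and Hochberg, 3 of them were called higher, against 37.7% of the 13675 genes tested. In Aim2-/- cells 6 passed the filter and 5 were called higher, against 39.1% of 13713 genes. Il9 in both genotypes and Csf2 in Aim2-/- reached 10 counts only in Treg libraries. They could thus enter the test only by being high in Treg, so their calls add no independent support to these counts. With 76.9% and 79.3% of all tested genes called in one direction or the other, a call alone does not set these genes apart. The genes that failed the filter were fitted again without it, where 23.4% and 24.6% of genes with any count were called higher and 24.2% and 25.7% lower.

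Lif changed most among the genes counted in both states. Its level in libraries 1 to 4 was 0.83, 1.82, 0.591 and 0.886 CPM in WT Tn and 1.5, 1.32, 1.2 and 0.952 CPM in Aim2-/- Tn. WT Treg held 93.1, 123, 56.4 and 173 CPM, while Aim2-/- Treg held 96.8, 137, 175 and 114 CPM. The Treg libraries did not overlap with the Tn libraries and lay above them, as for 36.4% of the tested genes in WT and 37.1% in Aim2-/-. The fold was 105.5 in WT (log2 fold change 6.72, SE 0.46, adjusted p = 9.6e-07 by edgeR) and 104.2 in Aim2-/- (6.70, SE 0.23, adjusted p = 1.1e-09 by edgeR).

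Il9 went from 0 counts in every Tn library to between 170 and 808 in every Treg library. The counts of libraries 1 to 4 were 540, 528, 551 and 309 in WT Treg and 316, 374, 170 and 808 in Aim2-/- Treg. The spread was wider in Aim2-/-, where the highest library was 5.24 times the lowest, against 1.59 times in WT. Measured against the floor of 3 counts per library, Il9 was at least 136-fold higher in Treg in WT and at least 146-fold higher in Aim2-/- (edgeR adjusted p = 6.3e-07 and 4.1e-05). The 6 mast cell and basophil markers summed to at most 0.0337 CPM in the Treg libraries, and the part of other cells in the Il9 counts was not tested.

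Tnf was present before culture and rose less. Its level was 12.7, 13.6, 22 and 29.4 CPM in WT Tn and 53.8, 53.1, 30.0 and 44.4 CPM in WT Treg. In Aim2-/- it was 12.3, 13.8, 20.3 and 18.8 CPM in Tn and 46.1, 41.8, 44.3 and 57.0 CPM in Treg. The Aim2-/- groups lay well apart, whereas in WT the highest Tn library and the lowest Treg library were nearly level, and they overlapped when TMM factors were taken over those 8 libraries only. The log2 fold change was 1.19 in WT (SE 0.29, edgeR adjusted p = 0.0042) and 1.53 in Aim2-/- (SE 0.16, edgeR adjusted p = 4.8e-06). With replicates 3 and 4 only, the WT value fell to 0.50 and was not called (edgeR adjusted p = 0.12).

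Csf2 had few counts in every group. Libraries 1 to 4 held 5, 1, 7 and 2 counts in WT Tn and 0, 8, 4 and 4 in Aim2-/- Tn. The Treg libraries held 36, 42, 42 and 5 in WT and 32, 15, 10 and 15 in Aim2-/-. In Aim2-/- the log2 fold change was 2.21 (SE 0.62, edgeR adjusted p = 0.0061), and 2.26 without the filter (SE 0.59, edgeR adjusted p = 0.0021). The Aim2-/- groups did not overlap, which the filter required, since every Tn library held 8 counts or fewer. In WT, where WT Treg 4 lay within the range of the Tn libraries, the gene failed the filter, and without it the log2 fold change was 2.77 (SE 0.64, edgeR adjusted p = 0.0022).

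Ifng spread widely after culture. WT Tn held 3.49, 2.41, 3.93 and 4.19 CPM, while WT Treg held 1.15, 4.49, 0.936 and 20.7 CPM. In Aim2-/- it was 2.47, 2.74, 7.36 and 3.02 CPM in Tn and 2.41, 6.57, 13.6 and 25.4 CPM in Treg. The groups overlapped in both genotypes, with 2 WT Treg libraries below all WT Tn libraries. The log2 fold change was 0.92 in WT (SE 0.88, edgeR adjusted p = 0.36) and 1.61 in Aim2-/- (SE 0.62, edgeR adjusted p = 0.034). The Aim2-/- call was lost with limma-voom (log2 fold change 1.31, adjusted p = 0.099), with no filter (1.66, edgeR adjusted p = 0.13), with all 16 libraries in one fit (1.61, edgeR adjusted p = 0.094) and without any 1 of 5 of the 8 libraries, with log2 fold changes from 0.96 (without Aim2-/- Treg 4, edgeR adjusted p = 0.17) to 1.56, and the WT value became -0.69 without WT Treg 4.

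The last 4 genes stayed near the floor. Il17a held 2, 0, 7 and 3 counts in WT Treg and 9, 5, 0 and 4 in Aim2-/- Treg, against 0 in every Tn library. Without the filter it was called higher in both genotypes (edgeR adjusted p = 0.028 in WT and 0.0033 in Aim2-/-), and against the floor the Aim2-/- Treg mean was at least 1.6-fold higher. The WT Treg mean did not exceed the floor, and its call was lost with DESeq2 (adjusted p = 0.097), with the replicate block (edgeR adjusted p = 0.088), without WT Treg 3 (edgeR adjusted p = 0.092) and without WT Tn 1 or WT Tn 4 (edgeR adjusted p = 0.051 each). Il4 summed to 23 counts in WT Tn and 7 in WT Treg (log2 fold change -1.83 without the filter, SE 0.76, edgeR adjusted p = 0.059), with adjusted p of 0.036 by limma-voom and, by edgeR, 0.048 without WT Tn 2 and 0.044 without WT Treg 4. In Aim2-/- it summed to 17 and 18 counts. Il10 summed to 10 and 26 counts in WT and to 68 and 37 in Aim2-/-, where it passed the filter and was not called (log2 fold change -0.87, SE 0.68, edgeR adjusted p = 0.26). Il21 fell from 37 counts in Aim2-/- Tn to 2 in Aim2-/- Treg (-3.86 without the filter, SE 0.91, edgeR adjusted p = 0.00078), while WT summed to 3 and 0 counts.

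**Figure D2:**
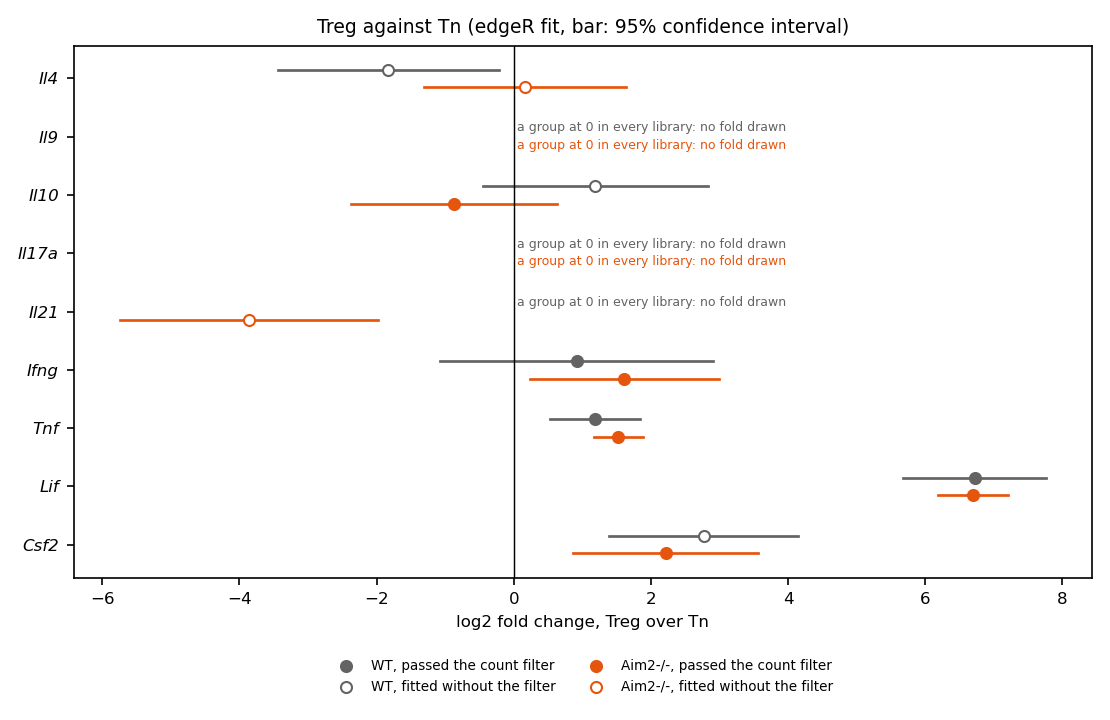
Fitted log2 fold change of Treg over Tn with its 95% confidence interval for WT (grey) and Aim2-/- (orange), filled where the gene passed the count filter and open where it was fitted without it. Lif lies near 6.7 in both genotypes, Tnf at 1.19 and 1.53, and no fold is drawn where a group had 0 counts in every library.

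The second question was whether the lack of Aim2 changed these genes. In Tn 3 of the 9 genes passed the filter, and 0 were called by edgeR, 0 by DESeq2 and 0 by limma-voom, with 0 at an unadjusted p under 0.05, against 0.231% of 13441 genes called by edgeR and 10.3% at that unadjusted p. In Treg 5 passed, with 0 called by each of these tools and 0 at an unadjusted p under 0.05, against 0.219% and 2.3% of 13221 genes. The 95% intervals give the sizes that remained possible. In Treg the log2 fold change was 0.06 for Tnf (interval -0.35 to 0.47), 0.22 for Lif (-0.50 to 0.95) and -0.02 for Il9 (-0.97 to 0.93). The intervals were wider for Csf2 (-0.58, from -1.83 to 0.68) and Ifng (0.81, from -1.45 to 3.08). The value of Ifng was 2.43 without WT Treg 4 and 0.15 without Aim2-/- Treg 4, and was called in neither fit. In Tn it was 0.15 for Ifng (-0.62 to 0.93), -0.25 for Tnf (-0.88 to 0.38) and 0.28 for Lif (-0.49 to 1.05).

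Among the genes that failed the filter in Tn, Il10 and Il21 had more counts in Aim2-/-. Il10 had 1, 5, 1 and 3 counts in WT Tn and 15, 3, 33 and 17 in Aim2-/- Tn. Il21 had 0, 1, 0 and 2 counts in WT Tn and 5, 3, 20 and 9 in Aim2-/- Tn. The groups did not overlap for Il21, as for 2.75% of the 24492 genes with any count, and overlapped for Il10 through Aim2-/- Tn 2. The ratio of the summed counts, scaled by library size, was 6.31 for Il10 (95% interval 3.23 to 13.8) and 11.4 for Il21 (3.63 to 58.0), with intervals that cover counting error only. Fitted without the filter, where 0.2% of genes were called, neither passed the threshold: the log2 fold change was 2.63 for Il10 (SE 0.70, edgeR adjusted p = 0.24) and 3.35 for Il21 (SE 0.89, edgeR adjusted p = 0.21). Over the 11 alternatives without the filter the adjusted p ranged from 0.031 to 0.82 for Il10 and from 0.14 to 0.82 for Il21. Among them the threshold was passed for Il10 without Aim2-/- Tn 2 (log2 fold change 3.00, edgeR adjusted p = 0.031). Il10 was also called in a filtered fit with replicates 3 and 4 only, where it reached 10 counts only in the Aim2-/- libraries. In Treg the genes that failed the filter were Il4, Il10, Il17a and Il21, and without it none was called for genotype. Il4 summed to 7 counts in WT Treg and 18 in Aim2-/- Treg. Its ratio was 2.88 (1.15 to 8.16, counting error only), and its log2 fold change was 1.42 (SE 0.84, edgeR adjusted p = 0.90). The ratio was 1.59 for Il10 (0.94 to 2.74) and 1.68 for Il17a (0.766 to 3.83), and Il21 summed to 0 and 2 counts.

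Aim2-/- Tn 3 had the highest counts of Il10, Il21 and Ifng of the 8 Tn libraries. In the same library Ccl5, a chemokine of memory and NK cells, had 1267 counts against 286 to 637 in the other Tn libraries. Nkg7, a gene of cytotoxic granules, had 534 against 155 to 232, and Tyrobp, an adaptor of myeloid and NK cells, had 65 against 10 to 28. Over whole lists this library summed to 270 CPM for 12 memory and effector T cell markers (211 to 285 in Tn), to 32.2 CPM for 11 NK, NKT and gamma delta T cell markers (18.4 to 36.1) and to 11.8 CPM for 9 myeloid markers, the highest of the Tn libraries. Without it the log2 fold change was 2.05 for Il10 and 2.60 for Il21, both with an edgeR adjusted p of 0.82. The part of other cells in these counts was not tested.

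**Figure D3:**
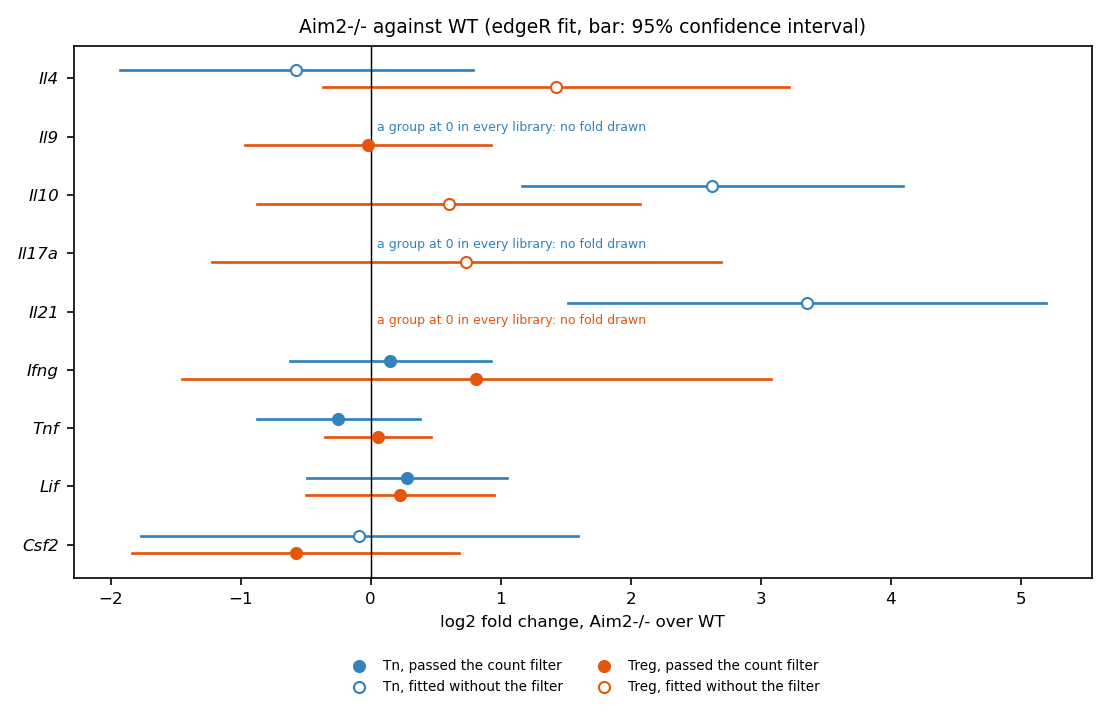
Fitted log2 fold change of Aim2-/- over WT with its 95% confidence interval in Tn (blue) and Treg (orange), filled where the gene passed the count filter and open where it was fitted without it. All filled points have intervals that include 0, and Il10 and Il21 in Tn are the open points at 2.63 and 3.35.

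Whether culture acted differently in the genotypes was tested as an interaction over all 16 libraries. Of the 9 genes 6 passed the filter and 0 were called by edgeR, by DESeq2 or by limma-voom, with 0 at an unadjusted p under 0.05 by edgeR, against 0.0205% and 3.5% of 14669 genes. For Il9 no interaction could be estimated, since all Tn libraries were at 0. The interaction on the log2 scale was -2.03 for Il10 (interval -4.44 to 0.38), 0.67 for Ifng (-1.89 to 3.24), -0.53 for Csf2 (-2.71 to 1.66), 0.31 for Tnf (-0.45 to 1.08) and -0.04 for Lif (-1.18 to 1.10).

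Several of these genes lie beside other cytokine genes, whose levels were compared in TPM. Tnf on chromosome 17 (35199381 to 35202007, minus strand, GENCODE M21 on GRCm38) is flanked within 1.16 kb by Lta, which encodes lymphotoxin alpha, and within 3.06 kb by Ltb, which encodes lymphotoxin beta. In WT, Tnf rose from 36.9 to 88.5 TPM, Lta rose from 36.0 to 1900 TPM and Ltb fell from 847 to 340 TPM. The log2 fold change was 5.64 for Lta (SE 0.30, edgeR adjusted p = 1.7e-07) and -1.40 for Ltb (SE 0.14, edgeR adjusted p = 1.1e-05). The neighbours thus went up by a large fold, up by a small fold and down. The same order held in Aim2-/- cells, with 5.81 for Lta (SE 0.33), 1.53 for Tnf and -1.51 for Ltb (SE 0.16).

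At the locus of Il17a, Il17f lies 42.6 kb away and encodes the closest relative of IL-17A. Il17f rose from between 1 and 15 counts in Tn to 596, 439, 737 and 85 in WT Treg and to 676, 485, 138 and 484 in Aim2-/- Treg. Its log2 fold change was 6.55 in WT (SE 0.74, edgeR adjusted p = 2.9e-05) and 5.70 in Aim2-/- (SE 0.57, edgeR adjusted p = 5.2e-06). Over the 4 libraries Il17f summed to 1857 counts in WT Treg and 1783 in Aim2-/- Treg, where Il17a summed to 12 and 18. In TPM the means were 23.2 and 25.1 for Il17f and 0.268 and 0.444 for Il17a.

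Lif lies 16.5 kb from Osm, which encodes oncostatin M of the same cytokine family. Osm was already at 23.3 TPM in WT Tn, when Lif was at 0.721 TPM, and rose to 53.9 TPM (log2 fold change 1.13, SE 0.21, edgeR adjusted p = 8e-04). Csf2 lies 15.6 kb from Il3, which had at most 1 count in any Tn library and between 9 and 28 counts in each Treg library. Il24, in the cluster that holds Il10, had 0 counts in all Tn libraries and between 29 and 340 in the Treg libraries. Il5 and Il13, the Th2 cytokine genes beside Il4, never exceeded 3 counts. Il22 near Ifng never exceeded 1 count, and Il2 near Il21 stayed between 0 and 14 counts.

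**Figure D4:**
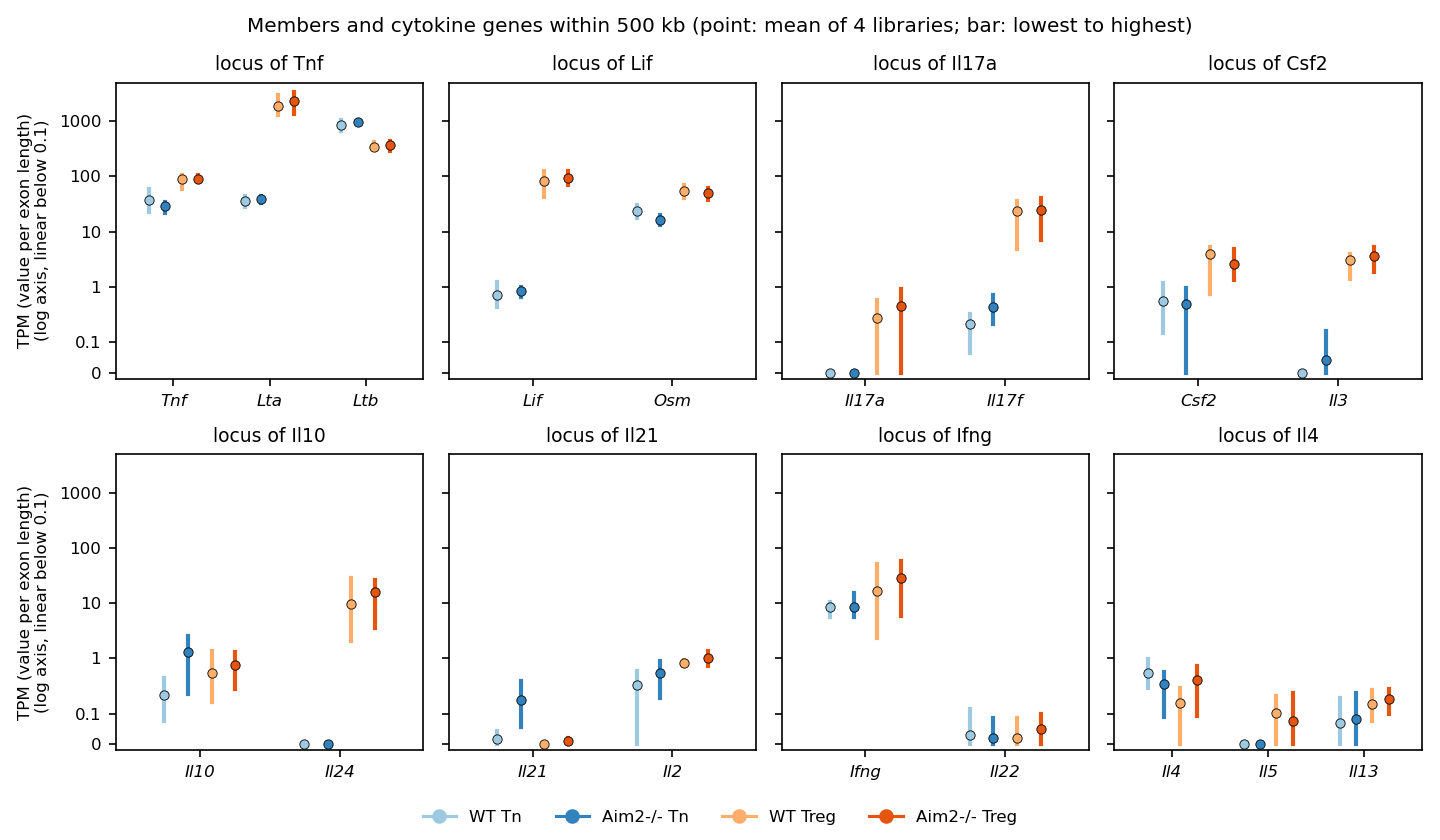
TPM of cytokine genes that lie within 500 kb of one of the 9 genes, on a log axis that is linear below 0.1, with the mean of 4 libraries as a point and the range as a bar. Lta rises from 36.0 to 1900 TPM in WT beside a smaller rise of Tnf, and Il17f lies above Il17a in both Treg groups.

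The 9 genes were set beside lists of related genes, written with earlier results of these data known. Their counts stand against 37.7% of all tested genes called higher and 39.2% lower with culture in WT, and 39.1% and 40.2% in Aim2-/-. Of 26 other helper T cell cytokine genes, 18 passed the filter in WT, 11 rose and 7 fell with culture, with a median log2 fold change of 1.92 against -0.05 over all genes tested. Besides Lta, the smallest p belonged to Ccl5, which fell (log2 fold change -7.45, SE 0.46), to Cd40lg, the CD40 ligand of T cell help, which fell (-2.34, SE 0.14), and to Xcl1, a chemokine for dendritic cells, which rose (2.71, SE 0.21). In Aim2-/- 12 of 19 rose and 7 fell. For genotype, 0 genes of this list or of the following 4 lists were called by edgeR in Tn, in Treg or in the interaction.

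Most tested receptor genes fell. Of 17 receptor subunits for the 9 cytokines, 12 passed the filter, 9 fell and 1 rose in each genotype, with a median log2 fold change of -1.57 in WT and -1.71 in Aim2-/-. In WT the IFN-gamma receptor chains Ifngr1 (-2.57, SE 0.40) and Ifngr2 (-2.37, SE 0.55) fell, as did Il21r (-2.23, SE 0.35), Il4ra (-2.03, SE 0.42), Tnfrsf1a (-1.89, SE 0.16), Il6st, which encodes gp130 (-1.75, SE 0.16), Il10ra (-1.38, SE 0.20), Il17ra (-1.37, SE 0.08) and the common gamma chain Il2rg (-0.91, SE 0.06). The size of several falls rests on WT Tn 1 and 2, which stood apart from WT Tn 3 and 4. Ifngr1 was 286, 298, 101 and 99.7 CPM in WT Tn 1 to 4, Ifngr2 was 236, 265, 61.7 and 68.1 CPM and Il4ra was 1260, 1440, 421 and 424 CPM. The WT Treg libraries reached at most 38.5, 37.8 and 242 CPM for these genes, below every WT Tn library. Tnfrsf1b, the second TNF receptor and a gene of Treg cells, rose (1.64, SE 0.22). Il10rb and Csf2ra were tested and not called, at 0.09 (SE 0.12) and -0.10 (SE 0.24). Lifr, the specific chain of the LIF receptor, never exceeded 3 counts in any library, and Il9r, Il17rc, Csf2rb and Csf2rb2 never exceeded 12.

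Among 43 transcription factors of cytokine genes 41 passed the filter in WT, 16 rose and 20 fell, where 76.9% of all tested genes were called. The smallest p belonged to the AP-1 genes Fos (log2 fold change -8.34, SE 0.23) and Junb (-3.96, SE 0.11), to Stat4 of the IL-12 pathway (-2.80, SE 0.10) and to Irf8 (6.93, SE 0.25). Of 16 genes that control decay or stability of cytokine mRNA 6 rose and 10 fell in WT, among them Dusp1, a phosphatase that limits p38 signalling (-5.39, SE 0.12), Zfp36l2 (-2.82, SE 0.08), Khsrp (1.22, SE 0.07) and Hnrnpd (1.16, SE 0.09), which bind AU-rich elements. Of 20 genes that these cytokines induce in T cells, 18 passed the filter in WT, 10 rose and 7 fell. They were led by the STAT5 targets Socs2 (8.67, SE 0.21) and Cish (3.82, SE 0.17), which rose, and by Tnfaip3 (-6.33, SE 0.45) and Traf1 (-1.04, SE 0.09) of the NF-kB pathway, which fell. Tnfaip3 also differed within WT Tn, at 3990, 4910, 1420 and 2250 CPM in libraries 1 to 4, with at most 49.5 CPM in WT Treg. With culture in Aim2-/-, 18 of the transcription factors rose and 20 fell. The decay and stability genes gave 4 higher and 9 lower there, and the induced genes 9 higher and 8 lower. The IL-2 given in culture also acts through STAT5, and its part in Socs2 and Cish cannot be told apart from that of the cytokines the cells made. In Aim2-/- against WT Tn, 7 of 17 tested genes of this last list had an unadjusted p under 0.05 and a log2 fold change above 0, against 10.3% of all genes in either direction. The smallest was Bcl3, an atypical member of the I-kappa-B family (0.78, SE 0.16, edgeR adjusted p = 0.16). Aim2-/- Tn 3, described above for Ifng and for markers of other cells, was the highest Tn library for Bcl3 (40.4 CPM), Gbp2 (109 CPM), Igtp (243 CPM), Irgm1 (137 CPM) and Socs1 (27.1 CPM). In the other Aim2-/- Tn libraries Bcl3 was at least 25.9 CPM and Socs1 at least 19.7 CPM. The WT Tn libraries held at most 24.4 and 17.8 CPM of these genes. For Gbp2, Igtp and Irgm1 the other Aim2-/- Tn libraries overlapped with WT Tn. The part of Aim2-/- Tn 3 in the count of 7 genes was not tested.

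AU-rich elements contain the letters ATTTA, and these were counted in the longest annotated 3′ untranslated region of each gene (GENCODE M21). Il9 had 3 copies in 86 bases (34.9 per kb), Csf2 9 in 317 (28.4 per kb) and Il4 2 in 104 (19.2 per kb). Il17a had 11, Tnf 10.5, Ifng 9.51 and Il10 8.5 copies per kb. Il21 and Lif, with regions of 2578 and 3180 bases, had 3.49 and 2.2 per kb, where the median over 20113 genes was 1.26. These genes had regions of at least 100 bases, longer than that of Il9, which therefore has no share here. The share of genes with the same density or a higher one was at most 1.26% for Csf2, Il4, Il17a, Tnf, Ifng and Il10, 15.1% for Il21 and 31.5% for Lif. Whether this density bears on the levels of these genes was not tested.

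The 8 Treg libraries differed among themselves, and among Il9, Tnf, Lif and Ifng, the members well above the floor, Ifng varied most. It was lowest in WT Treg 3 and WT Treg 1 and highest in Aim2-/- Treg 4, WT Treg 4 and Aim2-/- Treg 3. The highest WT Treg library was 22.2 times the lowest, and the highest Aim2-/- Treg library 10.5 times the lowest. The following genes were picked after their values were seen. Tbx21, which encodes the Th1 factor T-bet, was 14.7, 49.8, 18.8 and 127 CPM in WT Treg 1 to 4 and 19.3, 75.3, 134 and 137 CPM in Aim2-/- Treg 1 to 4. Il24 was 1.28, 2.14, 0.876 and 12.4 CPM and 1.55, 3.88, 11.5 and 12.1 CPM in the same order. The same 3 libraries were thus the highest for Ifng, Tbx21 and Il24, and also for Ccl3, Ccl4 and Lta.

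Other genes ran differently over those libraries. Foxp3 was 560, 573, 496 and 278 CPM in WT Treg 1 to 4 and 560, 523, 329 and 288 CPM in Aim2-/- Treg 1 to 4. Its lowest 3 libraries were also the lowest for the Treg cell markers Nrp1, Il2ra and Ctla4 and for Ccr6, a receptor of Th17 cells. Il2ra was 1380, 1320 and 1300 CPM there against 1420 to 1510 CPM. Ctla4 was 57.4, 66.1 and 55.1 CPM against 72.2 to 84.2 CPM. The remaining Treg markers did not share this. Tnfrsf18 was highest in the same 3 libraries (79.4, 82.9 and 80.6 CPM against 61.5 to 68.7 CPM), and Ikzf2 was highest in WT Treg 4 (14.7 CPM). Itgae was lowest in Aim2-/- Treg 4 and WT Treg 4 but not in Aim2-/- Treg 3 (3.67 CPM). Csf2, Il17f and Il9 were lowest in WT Treg 4 and Aim2-/- Treg 3, but Il9 was highest in Aim2-/- Treg 4. Lif was lowest in WT Treg 3 and highest in Aim2-/- Treg 3 and WT Treg 4. WT Treg 4, Aim2-/- Treg 3 and Aim2-/- Treg 4 bear replicate numbers 3 and 4, but WT Treg 3 does not share their pattern. Within replicates 1 and 2, the log2 fold change of Ifng from Tn to Treg was -0.04 in WT and 0.79 in Aim2-/-, and within replicates 3 and 4 it was 1.38 and 1.91, with no call in any of these fits. The labels name no preparation day or batch.

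**Figure D5:**
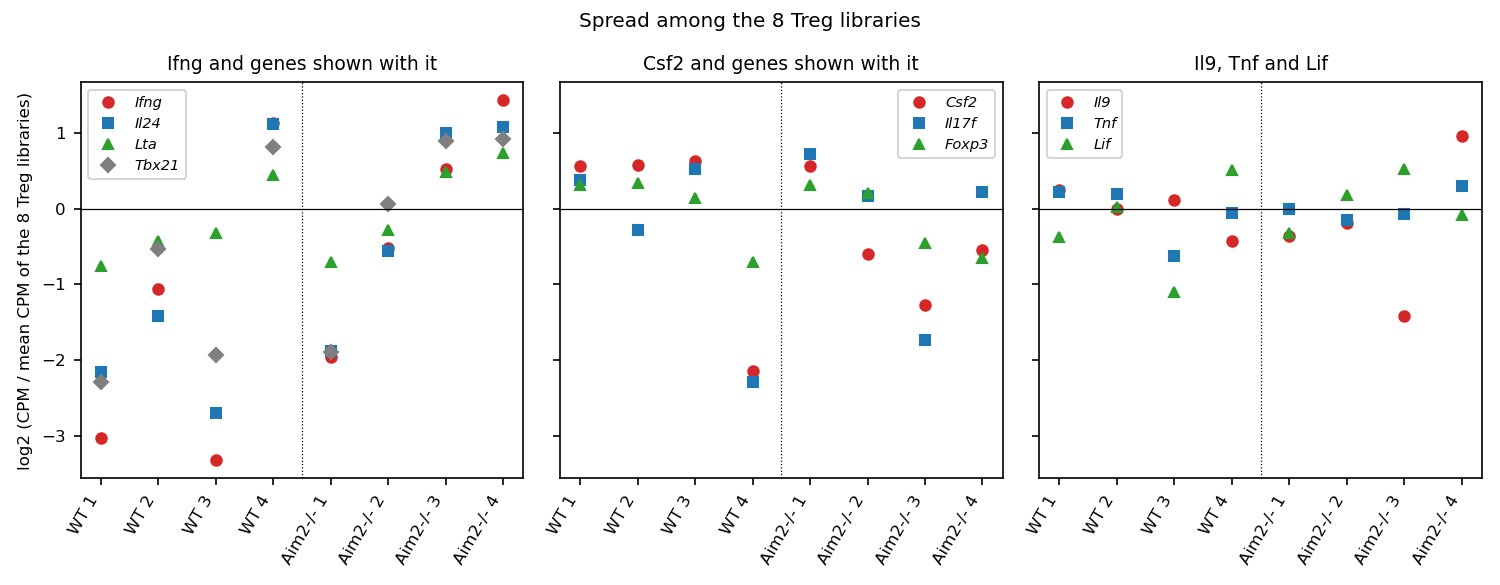
Level of cytokine genes and regulators in the 8 Treg libraries as log2 of CPM over the mean of the 8, with WT to the left and Aim2-/- to the right of the dotted line. Ifng, Il24, Lta and Tbx21 are highest in WT 4, Aim2-/- 3 and Aim2-/- 4, where Foxp3 is lowest.

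For 6 members with at least 10 counts in at least 4 libraries, the genes with the most similar profile were listed by Pearson's r of log2 CPM, as a description. Over all 16 libraries, where r mainly reflects the step from Tn to Treg, these were Tmem125 and Heatr3 for Il9 (r of 0.997 and 0.995) and St6galnac4 and Gtse1 for Lif (0.995 each). They were Spag7 and Tyw3 for Tnf (0.964 and 0.963), Ly6a and Tmem35a for Ifng (0.942 and 0.934), Extl1 and Myh15 for Csf2 (0.926 and 0.923) and Bcl3 and Nudt9 for Il10 (0.895 and 0.873). Over the 8 Treg libraries, with genotype means subtracted, they were Zfp385a and Slfn10-ps for Il9 (0.972 and 0.967), Yif1a and 2010107E04Rik for Ifng (0.990 and 0.989) and Coq7 and Sap30bp for Tnf (0.978 and 0.973). For Lif they were Pdha1 and Ikzf3 (0.992 and 0.978), and for Csf2 Sh3bgrl2 and Tlcd2 (0.994 and 0.991). These genes were picked for the highest r among the 14669 genes of the interaction fit. A high r was thus built into the choice, most of all over 8 libraries. The points share libraries and depth, and no test was made of these r.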

How the data were processed

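RNA was measured by stranded mRNA sequencing of 16 libraries, 4 in each of WT Tn, Aim2-/- Tn, WT Treg and Aim2-/- Treg, grouped by their labels. The authors aligned single-end reads (STAR, GRCm38), estimated gene abundance (RSEM, GENCODE m15) and deposited expected counts (estimated counts per gene, neither normalized nor filtered), whose strand setting and tool versions are not given in the sources used here. Expected counts were rounded to whole numbers. Those of Ifng were not whole in 13 libraries, which means that reads were shared with other genes. Genes that reached 10 counts in 4 or more libraries of a comparison were tested with edgeR 4.0.16 (two-sided robust quasi-likelihood F test, TMM) on the 8 libraries compared, or on all 16 for the interaction, with Benjamini-Hochberg adjustment over all genes tested and a threshold of 0.05. Alternatives were DESeq2 1.42.0, limma-voom (limma 3.58.1), RLE scaling, other filters, a replicate block and left-out libraries, and those of the fits without a filter were added after seeing the data. The fits were tested on simulated data. CPM used TMM factors, and TPM used exon lengths of GENCODE M21. Intervals of ratios and the floor of 3 counts cover counting error only, since reads carried no molecular identifiers. Promoter windows came from RefSeq, without chromosome 18, and Il10 had no entry. The members, lists and the rule for named genes (the 9 genes, Aim2, the 4 genes of each list with the smallest p in WT and every receptor subunit) were set with earlier results of these data known. Genes beside a member, and genes in the account of single libraries, were added by position or after their values were seen. The results of 1 further gene are not reported here.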

Additional observations from a re-analysis of the deposited data

Results flagged for a closer look

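In 31 groups of 4 libraries the highest and the lowest value were compared with the rest of the group, a screen in which chance flags about 1 in 20 groups, and 2 libraries stood apart. Ifng was 7.36 CPM (196 counts) in Aim2-/- Tn 3, where the next library of its group had 3.02 CPM. Csf2 was 0.185 CPM (5 counts) in WT Treg 4, where the next library of its group had 1.21 CPM.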

How the results depend on the processing

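Over 18 alternatives to the culture fits Lif stayed called in both genotypes, and Tnf lost its call in WT with replicates 3 and 4 only (log2 fold change 0.50). Over 17 alternatives Il9 lost its call in Aim2-/- with replicates 3 and 4 only (adjusted p = 0.16), where the Treg libraries held 170 and 808 counts and the Tn libraries 0, and in both genotypes it was untested where 10 counts were required in every library. Without a filter on low counts 5 members were called in WT. In Aim2-/- 3 were called where 10 counts were required in every library, because Csf2 also went untested, and 3 with replicates 3 and 4 only. With replicates 3 and 4 only, 1 member (Il10) was called between genotypes in Tn. With values per kilobase of exon, Lif stood at 0.926 times Tnf in WT Treg. Depth limits Il4, Il10, Il17a, Il21 and Csf2, for which single reads move the fold.

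Signs that turned belong to values that were not called. For Ifng in WT, Treg against Tn, the log2 fold change was -0.21 with limma-voom, -0.042 with the replicate block and -0.038 with replicates 1 and 2 only. With replicates 1 and 2 only, Aim2-/- against WT was -0.17 for Ifng and 0.0081 for Tnf in Tn, and -0.28 for Tnf in Treg, where the interaction of Tnf was -0.28. With replicates 3 and 4 only, Il9 was 0.33 in Treg. When single libraries were left out, values ran from -0.69 to 1.3 for Ifng with culture in WT. For Il4 with culture in Aim2-/-, fitted without the filter, they ran from -0.28 to 0.56, being -0.14 without Aim2-/- Tn 1 and -0.089 without Aim2-/- Treg 3. Between genotypes in Tn they ran from -0.34 to 0.31 for Ifng, from -0.41 to 0.014 for Tnf and, fitted without the filter, from -0.58 to 0.49 for Csf2 (0.014 without WT Tn 1 and 0.30 without Aim2-/- Tn 1). Between genotypes in Treg they ran from -0.57 to 0.26 for Il9 and from -0.10 to 0.15 for Tnf, and for the interaction of Lif from -0.44 to 0.26. The causes were not tested.

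Replicate numbers follow the sample titles, and the deposited file names number the Aim2-/- Tn and both Treg groups otherwise, which bears on the block and on every fit by number. The replicate numbers did not pair the libraries throughout any comparison. Correlations of same-numbered libraries ranged from -0.035 to 0.4 and were not over 0.1 throughout in any comparison, and not every library correlated best with its own number. Between genotypes in Treg they were 0.4, 0.23, -0.013 and 0.35 for numbers 1 to 4. There WT Treg 1 and 2 correlated best with their own number, WT Treg 3 with number 4 and WT Treg 4 with number 3. With the replicate block, 3 members were called with culture in WT, 4 in Aim2-/- (Ifng lost, adjusted p = 0.061) and 0 for genotype, and the interaction of Lif was 0.0018.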
